A study of Mus musculus with 23 samples.

Results

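The machinery that releases synaptic vesicles was examined in hippocampal CA3 of UBB+1 transgenic (tg) and wild-type mice. It was taken as 51 genes in 11 roles, from the SNARE proteins that fuse vesicle and plasma membrane to the scaffolds of the active zone. A gene counted as measured where the array annotation gave a probe set to that gene alone. All 51 genes were measured among 18192 genes in the series, by 138 of 45136 probe sets. Of them, 18 were on both kinds of array, 25 on MOE430A only and 8 on MOE430B only.

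UBB+1 is a frame-shifted form of ubiquitin B that is found in Alzheimer's disease and inhibits the proteasome at high levels. The UBB+1 tg mice were heterozygous animals of a single C57BL/6J line in which the CaMKIIα promoter drives human UBB+1 in neurons, and the wild-type mice were littermates without the transgene. All mice were 18 months old, were killed by CO2 asphyxiation and gave 5 ng of total RNA from laser-cut CA3 tissue, amplified in 2 rounds. Single mice are named by tg or wt and the number in the labels. There were 6 UBB+1 tg mice on each kind of array, against 5 wild-type mice on MOE430A and 6 on MOE430B. MOE430A and MOE430B are 1-colour Affymetrix arrays with different probe sets, and values are given as log2 of the normalized (RMA) intensity.

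When a nerve terminal is depolarised, calcium enters at the active zone and docked vesicles fuse within a fraction of a millisecond. Fusion is driven by a SNARE complex of syntaxin and SNAP-25 on the plasma membrane with a VAMP on the vesicle. Munc13 proteins open syntaxin for complex assembly, complexins clamp and promote fusion, and NSF with its SNAP adaptors takes the spent complexes apart. Synapsins hold the reserve vesicles together, and RIM, Piccolo, Bassoon and ERC proteins build the site of release. CA3 holds the mossy fibre terminals of dentate granule cells and the recurrent terminals of CA3 pyramidal cells themselves, but mRNA in a laser-cut CA3 sample comes mainly from cell bodies there.

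Many release genes are kept silent outside neurons by the repressor REST through the RE1 element, whose left part reads TTCAGCACC and whose right part reads GGACAGCGC. RefSeq promoter windows (GRCm38.p6, 300 bases, 250 of them before the transcription start) were at hand for 42 of the 51 genes, in 53 windows, and were searched on both strands for these letters. The left part was found in 3 of the 53 windows (5.66%), those of Syn1, Unc13a and Ppfia3, and in 0.371% of all 32851 windows. The right part was in 1 of the 53 windows, also that of Unc13a, and in 0.405% of all windows. The cyclic AMP response element TGACGTCA was in 3 windows (5.66%; Syn1, Napa and Stxbp3) against 1.79% of all. The GC box GGGCGG was in 35 of the 53 windows (66%) against 35.7% of all. The TATA box TATAAA was in 3 windows (5.66%), those of Stx3 and Sv2b, against 13.6% of all. The windows of the 3 genes with such a part follow, 5′ to 3′ on the gene's strand, because this is the sequence feature that sets them apart from most promoters. Capitals mark the RE1 parts and, at bases 92 to 99 of the Syn1 window, the cyclic AMP response element. In Unc13a both parts lie on the opposite strand, with 8 bases between them.
Syn1 (GRCm38.p6, chrX:20920869-20921168, minus strand): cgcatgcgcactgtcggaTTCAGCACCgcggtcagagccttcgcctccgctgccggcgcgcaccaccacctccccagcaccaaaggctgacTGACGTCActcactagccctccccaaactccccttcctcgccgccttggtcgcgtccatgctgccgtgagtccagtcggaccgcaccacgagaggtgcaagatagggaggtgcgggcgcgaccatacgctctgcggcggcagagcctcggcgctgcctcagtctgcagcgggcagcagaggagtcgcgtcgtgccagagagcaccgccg
Unc13a (GRCm38.p6, chr8:71671708-71672007, minus strand): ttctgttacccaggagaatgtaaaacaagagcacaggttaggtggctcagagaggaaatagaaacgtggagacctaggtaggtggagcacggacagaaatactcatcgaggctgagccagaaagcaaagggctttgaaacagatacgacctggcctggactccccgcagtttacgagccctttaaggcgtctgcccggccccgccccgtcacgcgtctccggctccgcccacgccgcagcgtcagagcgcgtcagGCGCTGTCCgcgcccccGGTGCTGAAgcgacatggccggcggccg
Ppfia3 (GRCm38.p6, chr7:45366970-45367269, minus strand): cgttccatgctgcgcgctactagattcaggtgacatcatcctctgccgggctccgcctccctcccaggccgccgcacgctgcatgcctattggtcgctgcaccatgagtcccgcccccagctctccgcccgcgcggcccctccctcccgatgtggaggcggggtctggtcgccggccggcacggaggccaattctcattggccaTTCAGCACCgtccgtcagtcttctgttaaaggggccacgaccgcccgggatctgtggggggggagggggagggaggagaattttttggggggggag
Napg, Snap25, Syn3, Syngr3, Vamp2, Vamp3, Vamp7, Doc2b and Rims2 had no window in the table used. A match describes letters in a window and does not show that a factor binds there. The log2 differences of these 3 genes between UBB+1 tg and wild-type CA3 were -0.48 for Syn1 and -0.06 for Unc13a on MOE430A and -0.26 for Ppfia3 on MOE430B, all with 95% intervals that included 0. They share no stable direction, since Syn1 was at 0.11 and Unc13a at 0.23 in a fit with a block for the sets of arrays described next, and Ppfia3 at -0.19.

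The arrays differed in the 3' bias of the RNA they measured, within both genotypes. The 3'-5' difference, the log2 excess of the 3' over the 5' control probe sets, averaged over Gapdh and β-actin, spanned 2.65 to 6.10 on MOE430A and 2.41 to 6.39 on MOE430B. A larger value means that less of the 5' part of these transcripts was measured. It averaged 4.61 ± 0.83 in UBB+1 tg mice and 4.11 ± 1.45 in wild-type mice on MOE430A (SD, n = 6 and 5, exact permutation test, two-sided, p = 0.435), and 4.85 ± 0.81 in UBB+1 tg mice and 4.22 ± 1.51 in wild-type mice on MOE430B (n = 6 and 6, exact permutation p = 0.407). Clustering of all probe sets put the arrays into 3 sets, a low set (tg271, wt287 and wt290), a high set (tg270 and wt289) and a middle set (4 UBB+1 tg mice with 2 wild-type mice on MOE430A and 3 on MOE430B). These sets were found in the values, so differences between them are given as descriptions. The same holds for p-values from fits with the sets as a block. The probe set that the methods tie to the transgene's promoter read 8.45 to 9.34 in UBB+1 tg mice and 6.41 to 6.85 in wild-type mice, with no overlap, and was left out of the fits.

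No release gene passed a false discovery rate of 10% in the comparison of UBB+1 tg with wild-type CA3. On MOE430A, 0 of 92 member probe sets were called by limma (0% of all 22625 probe sets were called), and on MOE430B 0 of 46 (0% of 22511). At an unadjusted p under 0.05, 2 of the 92 were past the threshold on MOE430A, against 3.48% of all probe sets. Unc13b was the 1 higher in UBB+1 tg (1.91% of all were higher) and Bsn the 1 lower (1.57% of all were lower). On MOE430B 2 of 46 were past it, against 3.05% of all, and both, for Lin7a and Stxbp5, were higher (1.52% of all were higher, and 1.53% lower, with 0 members among these). These unadjusted counts hung on single mice: on MOE430A the count was 8 without tg271, 7 without wt289 or wt321, 5 without wt291, 1 without tg273 or wt287 and 0 without wt290, and on MOE430B it was 4 without tg271 or wt289. The share over all probe sets was not taken with a mouse left out, so these shifts show nothing particular to the members. No member probe set had UBB+1 tg values that lay wholly to one side of the wild-type values, which 0.234% of all probe sets did on MOE430A and 0.142% on MOE430B.

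The differences were small beside their errors. Each gene was represented on each array by its brightest probe set. On MOE430A, 30 of 43 genes were nominally higher in UBB+1 tg mice, with a median log2 difference of 0.065, against 52.4% of 12392 genes and a median of 0.008 over all genes. When the array set was a block, 23 of the 43 were higher and the median was 0.039. On MOE430B, 14 of 26 were higher, with a median of 0.015, against 46.5% of 9607 genes and a median of -0.009 over all genes. The median standard error of the members was 0.25 on MOE430A and 0.15 on MOE430B, against 0.13 and 0.12 over all genes. The 95% interval of the difference stayed within 2-fold in either direction for 34 of 43 genes (79.1%) on MOE430A, against 92.4% of all genes. On MOE430B it did so for 25 of 26 (96.2%), against 96.3% of all genes. The adjusted p of the genes lay between 0.984 and 0.998 on MOE430A and was 1.00 on MOE430B (limma, Benjamini-Hochberg). Where a transcript was lower, fewer cells that make it and less of it per cell cannot be told apart in such tissue.

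**Figure D1:**
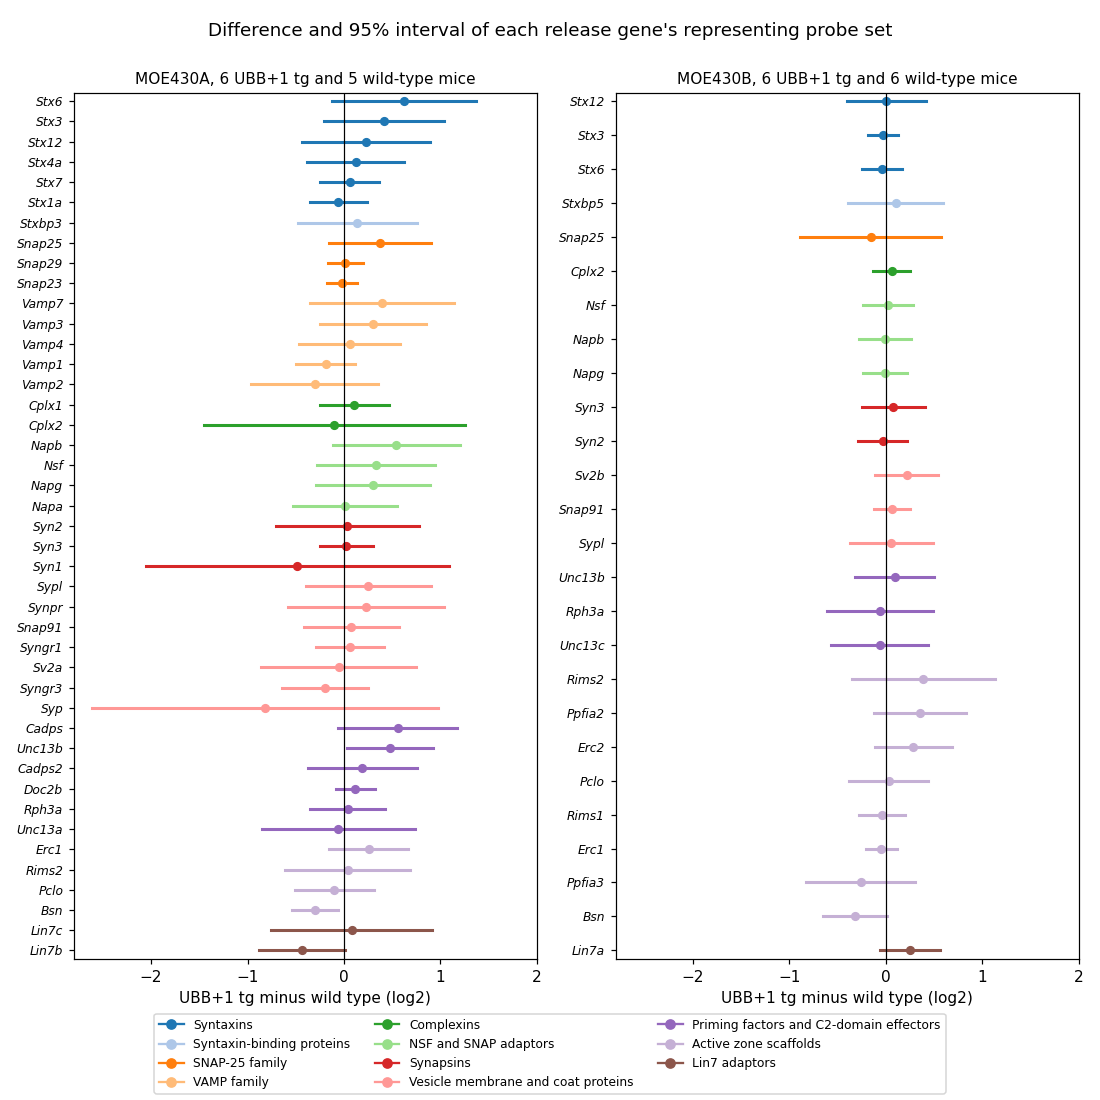
Log2 difference between UBB+1 tg and wild-type mice (x axis) for the representing probe set of each release gene (rows, coloured by role) on MOE430A (left) and MOE430B (right). Points are limma estimates and lines 95% intervals, and the intervals of Unc13b and Bsn on MOE430A are the 2 that exclude 0.

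Syntaxins are the plasma membrane and endosomal t-SNAREs that organise the fusion complex. On MOE430A 5 of 6 were nominally higher in UBB+1 tg mice and on MOE430B 1 of 3, and none was called. Under the array-set block 3 of the 6 on MOE430A were higher, and their median was 0.02 against 0.17 without the block. Stx6, a syntaxin of the trans-Golgi network and endosomes, read 9.39 at its lowest, 10.60 at the median and 11.04 at its highest in UBB+1 tg mice, against 9.25, 9.61, 9.43, 10.08 and 10.84 in mice wt287, wt289, wt290, wt291 and wt321, the order kept for MOE430A below (probe set 1460004_x_at). The groups overlapped over most of the range, and the difference was 0.62 (SE 0.34, adjusted p = 0.984, limma), and 0.32 under the array-set block. The suffix of this probe set marks possible cross-hybridisation, and the 5 other Stx6 probe sets were all below 0, down to -0.25. Stx3, which is enriched in ribbon synapses and serves fusion in dendrites, gave 0.42, 0.25 and -0.14 on its 3 MOE430A probe sets. On MOE430B it averaged 6.37 ± 0.07 in UBB+1 tg mice and 6.40 ± 0.14 in wild-type mice (SD, n = 6 each), a difference of -0.03 with a 95% interval of -0.18 to 0.13. Stx1a, the syntaxin of the neuronal fusion complex, was at -0.06 on its brighter probe set, 1437390_x_at, whose suffix also marks possible cross-hybridisation. On 1448366_at it was at -0.49 (SE 0.36), and at -0.22 with the 3'-5' difference in the fit.

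The syntaxin-binding proteins hold syntaxins ready for assembly or keep them from it. Stxbp5 (tomosyn), which occupies syntaxin and SNAP-25 in place of the vesicle SNARE and so restrains release, had the highest difference of any member probe set. On 1435398_at it read 6.32, 7.21 and 7.51 (lowest, median, highest) in UBB+1 tg mice, against 5.69, 6.40 and 6.85 in wild-type mice. Of the 6 UBB+1 tg mice 5 lay above the wild-type mean, and the groups overlapped between 6.32 and 6.85. The difference was 0.67 (SE 0.23), or 1.59-fold, with an exact permutation p of 0.0303 for this single value and an adjusted p of 1.00 over the array (limma). Its other 2 probe sets were also higher but by 0.10 and 0.09, so that the probe sets of Stxbp5 shared a sign and not a size. Stxbp3 (Munc18-3), a partner of the non-neuronal syntaxins, differed by 0.14 with an SE of 0.28 on MOE430A, where its signal was below the median of all probe sets.

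Of the SNAP-25 family, Snap25 itself, the t-SNARE that gives the neuronal complex a pair of its helices, differed in sign between the arrays. On MOE430A (1416828_at) it read 11.27, 11.71 and 12.28 (lowest, median, highest) in UBB+1 tg mice, against 10.74, 12.13, 11.50, 11.23 and 11.03 in wild-type mice. The difference was 0.37 (95% interval -0.16 to 0.90, exact permutation p = 0.177), and 5 of 6 UBB+1 tg mice exceeded the wild-type mean. On MOE430B (1447763_at) it averaged 8.63 ± 0.63 in UBB+1 tg mice and 8.79 ± 0.69 in wild-type mice (SD, n = 6 each), a difference of -0.16 with an interval of -0.89 to 0.58. Snap23 and Snap29, the more widely expressed relatives, were at -0.02 and 0.02 on their representing probe sets (SE 0.07 and 0.08).

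VAMPs are the vesicle SNAREs, and without a block the brain's main pair and the others stood on opposite sides of 0. All probe sets of Vamp1 and Vamp2, the synaptobrevins of synaptic vesicles, were nominally lower in UBB+1 tg mice, whereas all probe sets of Vamp3, Vamp4 and Vamp7, which act mostly in endosomal and constitutive traffic, were higher. Vamp1 (1421863_at) read 8.34, 8.53 and 8.92 in UBB+1 tg mice, against 8.87, 8.52, 9.03, 8.96 and 8.60 in wild-type mice, a difference of -0.19 (SE 0.14, exact permutation p = 0.21). Its second probe set, 1421862_a_at, was also at -0.19 (SE 0.09, exact permutation p = 0.0736). There all 6 UBB+1 tg mice lay below the wild-type mean, with SDs of 0.06 in UBB+1 tg and 0.21 in wild-type mice. Vamp2 was at -0.30 (SE 0.30) and -0.58 (SE 0.59), and Vamp7 at 0.40 (SE 0.34) and 0.29 (SE 0.28). None of these was called, and the genotypes overlapped on each of them. Under the array-set block Vamp2 was at -0.15 and -0.00071 and Vamp7 at 0.13 and 0.07. With the 3'-5' difference in the fit Vamp2 was at -0.10 and -0.38 and Vamp7 at 0.19 and 0.17. Vamp3 1456245_x_at was at 0.03 in that fit, against 0.15 without it. Probe sets of Vamp2, Vamp3 and Vamp7 are among those associated with the 3'-5' difference below. The split did not hold for all VAMPs in either fit. Vamp4 1422895_at was at -0.10 under the block and -0.06 with the 3'-5' difference in the fit, against 0.06 without either. Under the block 2 of the 5 VAMPs were higher on their representing probe sets.

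The complexins, small proteins that bind the assembled SNARE complex, differed by less than the spread between mice when no block was used. Cplx1 on MOE430A averaged 13.08 ± 0.28 in UBB+1 tg mice and 12.97 ± 0.30 in wild-type mice (SD, n = 6 and 5; 0.11, 95% interval -0.25 to 0.46). Cplx2, the complexin of excitatory hippocampal neurons, averaged 11.39 ± 0.18 in UBB+1 tg mice and 11.33 ± 0.11 in wild-type mice on MOE430B (1455672_s_at; 0.06, interval -0.13 to 0.25). On MOE430A Cplx2 (1421477_at) gave -0.10 with an interval of -1.45 to 1.25. Under the array-set block it was at -0.59 (unadjusted p = 0.0268, adjusted p = 0.687, limma), and its differences were -0.91, -0.60 and -0.11 in the low, middle and high set.

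NSF, the ATPase that disassembles SNARE complexes, and the SNAP adaptors were nominally higher in UBB+1 tg mice for 4 of 4 genes on MOE430A (3 of 4 under the array-set block), and for 1 of 3 on MOE430B, where all 3 lay between -0.01 and 0.02. Napb (β-SNAP, the brain form of the adaptor) read 11.22, 11.99 and 12.18 on 1423173_at in UBB+1 tg mice, against 10.52, 11.66, 10.58, 12.09 and 11.74 in wild-type mice. The low wild-type values came from wt287 and wt290, of the low array set, and the other 3 lay among the UBB+1 tg values. The difference was 0.54 (SE 0.30, exact permutation p = 0.16, adjusted p = 0.984 from limma) and 0.27 with a block for the array set. The 4 other MOE430A probe sets of Napb were at 0.44 to 0.56 and the MOE430B probe set at -0.01. Nsf gave 0.33 and 0.37 on MOE430A and 0.02 on both MOE430B probe sets.

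Among the synapsins, Syn1 split into separate levels within both genotypes. It read 8.28, 8.67 and 11.31 (lowest, median, highest; 1451484_a_at) in UBB+1 tg mice, against 10.48, 11.17, 10.55, 8.36 and 8.36 in wild-type mice. The values of 8.28 to 8.99 were those of the middle array set in both genotypes. The difference was -0.48 with an SE of 0.72, and 0.11 when the array set was a block. Leaving out single mice moved it between -0.89 (without tg270) and -0.14 (without wt289). Syn2 was at 0.03 on MOE430A and -0.03 on MOE430B. Syn3, at a signal below the median of all probe sets on MOE430B, averaged 5.35 ± 0.33 in UBB+1 tg mice and 5.27 ± 0.22 in wild-type mice there (SD, n = 6 each).

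The vesicle membrane and coat proteins showed the same kind of split for Syp (synaptophysin, an abundant vesicle protein that binds synaptobrevin). On 1448280_at Syp read 8.30, 9.30 and 11.91 in UBB+1 tg mice, against 11.45, 11.76, 11.39, 8.64 and 8.59 in wild-type mice. The difference was -0.82, the lowest of all members, but its SE was 0.82 and it was -0.09 under the array-set block. Its other probe set, 1456249_x_at, was at 0.11 (SE 0.16). Sv2b, a vesicle glycoprotein abundant in glutamatergic terminals, read 10.50, 11.01 and 11.41 (lowest, median, highest) in UBB+1 tg mice, against 10.41, 10.83 and 10.96 in wild-type mice on MOE430B (difference 0.22, SE 0.15, exact permutation p = 0.219). Snap91 (AP180), which recruits clathrin to vesicle membrane, was at 0.08 and 0.06 on the 2 arrays. Both probe sets of Syngr3 (synaptogyrin 3) were lower, at -0.20 and -0.36 with an SE of 0.20 each.

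Among the priming factors stood the only member probe set of MOE430A that was higher at an unadjusted p under 0.05. Unc13b (Munc13-2), which primes vesicles at a subset of hippocampal synapses including those of mossy fibres, read 7.50, 7.70 and 8.03 (1417757_at) in UBB+1 tg mice, against 6.64, 7.75, 6.91, 7.72 and 7.18 in wild-type mice. All 6 UBB+1 tg mice lay above the wild-type mean, and wt289 and wt291 lay among them. The difference was 0.48 (95% interval 0.03 to 0.93), or 1.40-fold, with an exact permutation p of 0.0693 and an adjusted p of 0.984 (limma). It was 0.40 with a block for the array set and 0.33 without wt287. On MOE430B its probe set lay below the median of all probe sets in signal and gave 0.09 (interval -0.32 to 0.51). Unc13a (Munc13-1), the main isoform of excitatory terminals, was at -0.06 and Unc13c at -0.06. Cadps (CAPS1), a priming factor best known from dense-core vesicles, read higher by 0.56 (SE 0.28), and by 0.31 when the array set was a block.

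Bsn (Bassoon), one of the giant scaffold proteins of the active zone, read lower in UBB+1 tg mice on all 3 of its probe sets. On 1450467_at of MOE430A it read 6.86, 7.22 and 7.45 (lowest, median, highest) in UBB+1 tg mice, against 7.58, 7.45, 7.67, 7.28 and 7.43 in wild-type mice. All 6 UBB+1 tg mice lay below the wild-type mean, but the highest of them reached into the wild-type range. The difference was -0.30 (SE 0.11, 95% interval -0.54 to -0.06), with an exact permutation p of 0.0195 for this single value and an adjusted p of 0.984 (limma). On 1436123_at of MOE430B, which holds RNA of the same 6 UBB+1 tg mice, it read 9.87, 10.33 and 10.84, against 10.34, 10.59 and 10.94 in wild-type mice. There 5 of 6 UBB+1 tg mice were below the wild-type mean, the difference was -0.32 (SE 0.15, exact permutation p = 0.0758) and the adjusted p was 1.00. The third probe set of Bsn, below the median of all probe sets in signal, was at -0.04 (SE 0.08). Under the array-set block the first 2 were at -0.24 and -0.25. Both arrays carry RNA of the same animals, so they do not add to the number of mice.

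The other scaffolds lay on both sides of 0. Pclo (Piccolo), the close relative of Bassoon, was at -0.10 and 0.03 on the representing probe sets of the 2 arrays, and Rims1 at -0.04. Rims2, which tethers calcium channels at the active zone, had the highest value of the representing probe sets on MOE430B at 0.39 (SE 0.34). On MOE430A it was at 0.04. Ppfia2 and Ppfia3 (liprins-α), which bring vesicle cargo to the active zone, were at 0.36 (SE 0.22) and -0.26 (SE 0.26). Of the ERC proteins, which bind RIM and Bassoon, Erc1 was at 0.26 on MOE430A but -0.05 on MOE430B, and Erc2 at 0.29 on MOE430B.

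The Lin7 proteins couple presynaptic adhesion and scaffold proteins in a complex with CASK and Mint1. Lin7a on 1438450_at of MOE430B read 5.43, 6.28 and 6.92 (lowest, median, highest) in UBB+1 tg mice, against 5.44, 5.63 and 5.75 in wild-type mice. The wild-type mice lay within a narrow band, 5 UBB+1 tg mice lay above all of it, and tg270 lay just under it. The difference was 0.61 (SE 0.19), or 1.53-fold, with an exact permutation p of 0.0216 and an adjusted p of 1.00 (limma). The brighter Lin7a probe set gave 0.25 (SE 0.14, exact permutation p = 0.143) and the third 0.05 (SE 0.47). Lin7b (1449172_a_at of MOE430A) read 9.69, 10.35 and 10.79 in UBB+1 tg mice, against 11.14, 10.86, 10.85, 10.63 and 10.44 in wild-type mice, a difference of -0.44 (SE 0.20, exact permutation p = 0.0758). Its other 3 probe sets gave -0.01, -0.45 and 0.17, and Lin7c was at 0.08.

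**Figure D2:**
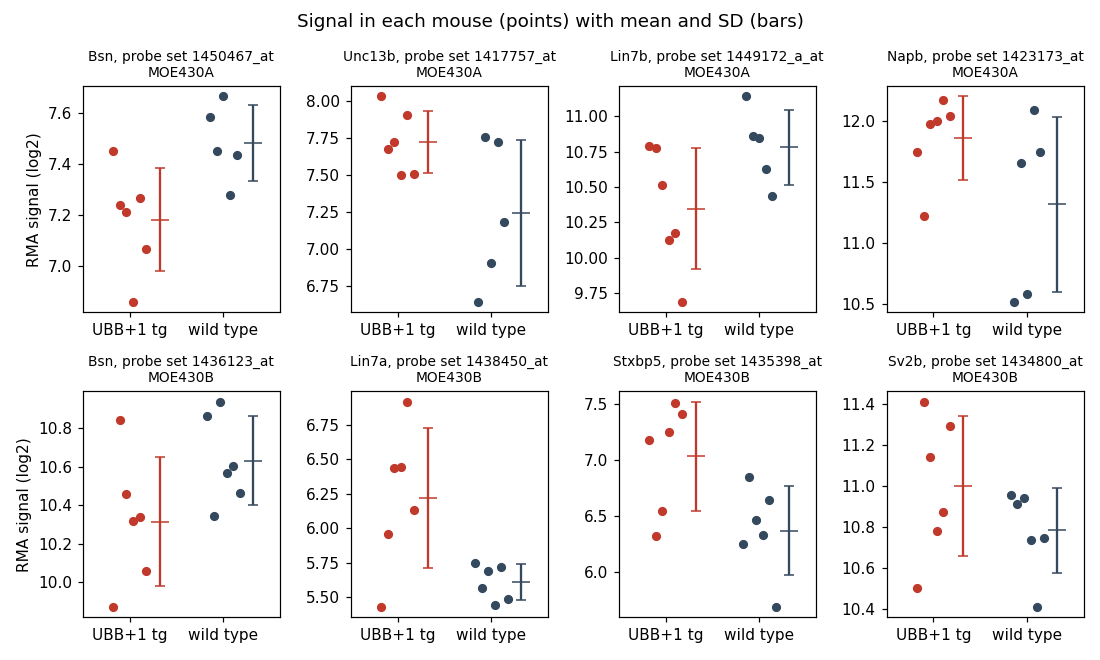
RMA signal (log2, y axis) of 8 member probe sets in each UBB+1 tg (red) and wild-type (dark) mouse, with points for mice and bars for mean and SD. The UBB+1 tg points of Bsn lie mostly below and those of Lin7a 1438450_at mostly above the wild-type points, and in all 8 panels the genotypes overlap.

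Probe sets of one gene often disagreed. Of 41 members with more than 1 probe set, 17 had all on the same side of 0, 12 higher and 5 lower in UBB+1 tg mice. The 5 lower were Bsn, Stx1a, Syngr3, Vamp1 and Vamp2. Of the 18 members on both arrays, the representing probe sets had the same sign for 8. These counts were not taken over all genes.

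The level of the release genes as a group varied with the array set in both genotypes. Per mouse, the median deviation of the 43 MOE430A genes from each gene's mean was -0.27 to -0.11 in the 3 mice of the low array set, 0.00 to 0.19 in the middle set and 0.01 to 0.16 in the high set. On MOE430B the 26 genes gave -0.14 to -0.07 in the low, -0.04 to 0.08 in the middle and -0.01 to 0.07 in the high set. The low set holds 1 UBB+1 tg and 2 wild-type mice on each array, and within it tg271 deviated by -0.11 on MOE430A, against -0.27 and -0.12 in wt287 and wt290. These mice were not matched for 3' bias. The 3'-5' difference on MOE430A was 3.43 in tg271, against 2.70 in wt287 and 2.65 in wt290. On MOE430B it was 3.73, against 2.41 and 2.56. A block for the array set does not remove this.

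**Figure D3:**
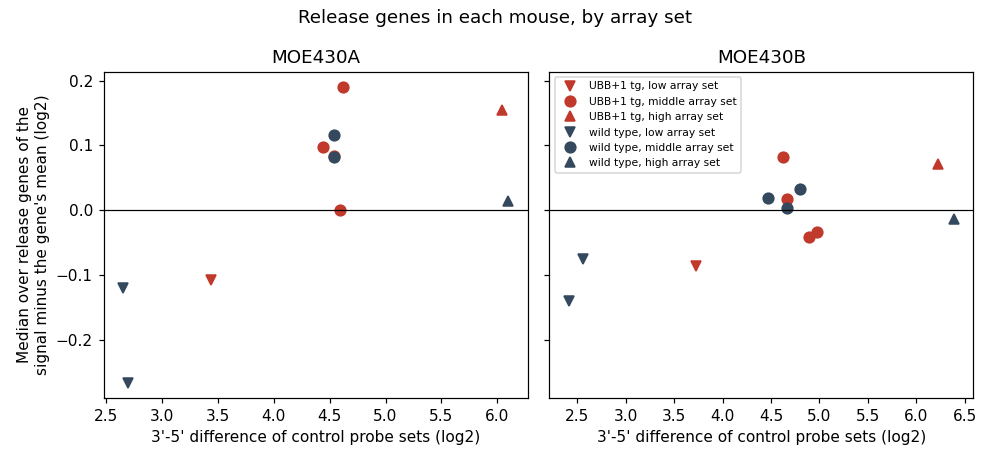
Median over the release genes of a mouse's signal minus the gene's mean (log2, y axis) against the 3'-5' difference of the array's control probe sets (log2, x axis), in UBB+1 tg (red) and wild-type (dark) mice, with the array set as symbol. The 3 arrays of the low set are the lowest on both kinds of array, and genotypes mix within the sets.

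In limma fits with genotype as a covariate, 13 of 92 member probe sets (14.1%) on MOE430A were associated with the 3'-5' difference at a false discovery rate of 10%, against 8.27% of all probe sets. Of these, 8 rose with it (3.91% of all probe sets did) and 5 fell (4.35%). On MOE430B 3 of 46 (6.52%) were called, against 1.61% of all. All 3 fell (0.937% of all), and 0 rose (0.675%). The MOE430A count was 4 without wt287 and 7 without wt290, the wild-type mice of the low array set. Over all probe sets of MOE430A the count fell as well, from 1870 to 878 and 1147. The member count fell by more in proportion without wt287, so the higher share of the members rested largely on this mouse. The 8 that rose were probe sets of Vamp7, Stx3, Cadps, Napb, Snap91, Pclo, Unc13b and Vamp3, with slopes of 0.41 to 0.23 log2 units per unit. The 5 that fell were Stx6 1431646_a_at, Syngr3 1448216_at, Syngr1 1419289_a_at, Vamp2 1420834_at and Stx1a 1448366_at. Stx1a had the steepest slope of them, -0.54 (SE 0.06, adjusted p = 0.00151), with means of 9.06, 8.16 and 7.29 in the low, middle and high array sets. On MOE430B Cplx2 1436383_at fell by 0.74 per unit (SE 0.14, adjusted p = 0.0398). It read 5.95 in tg270 and 6.31 in wt289, the 2 mice of the high set, against 7.88 or more in every other mouse. Ppfia3 fell by 0.37 and Bsn 1436123_at by 0.20 per unit, and this Bsn probe set is the one that read lower in UBB+1 tg mice on MOE430B. Unc13b and Cadps, which read higher in UBB+1 tg mice, are among those that rose with the 3'-5' difference, which was also nominally higher in these mice. With the 3'-5' difference as a further term of the fit Unc13b was at 0.35, Cadps at 0.39 and Bsn 1436123_at at -0.19, against -0.32 for this Bsn probe set without it.

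Other member probe sets set the middle array set apart from both others. Over 1 log2 unit lay between the middle set's mean and each of the others' for 9 of 92 member probe sets on MOE430A, against 2.02% of all, and for 1 of 46 on MOE430B, against 0.560% of all. Syp 1448280_at averaged 8.75 in the middle set, against 11.58 in the low and 10.93 in the high set, and Syn1 averaged 8.44 against 10.53 and 11.24. Vamp2 1420833_at also lay lower in the middle set, at 5.41 against 7.69 and 6.73. The other 6 lay higher there: 3 probe sets of Napb and 1 each of Nsf, Syn2 and Cplx2. Napb 1450888_at averaged 10.92 in the middle set, against 8.97 and 9.19, and Cplx2 1421477_at 10.52 against 8.96 and 8.31. On MOE430B the probe set was Lin7a 1456656_at, at 7.14 against 5.79 and 5.77. The other Syp probe set did not share this split: 1456249_x_at ranged from 6.66 to 7.63 over all mice.

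**Figure D4:**
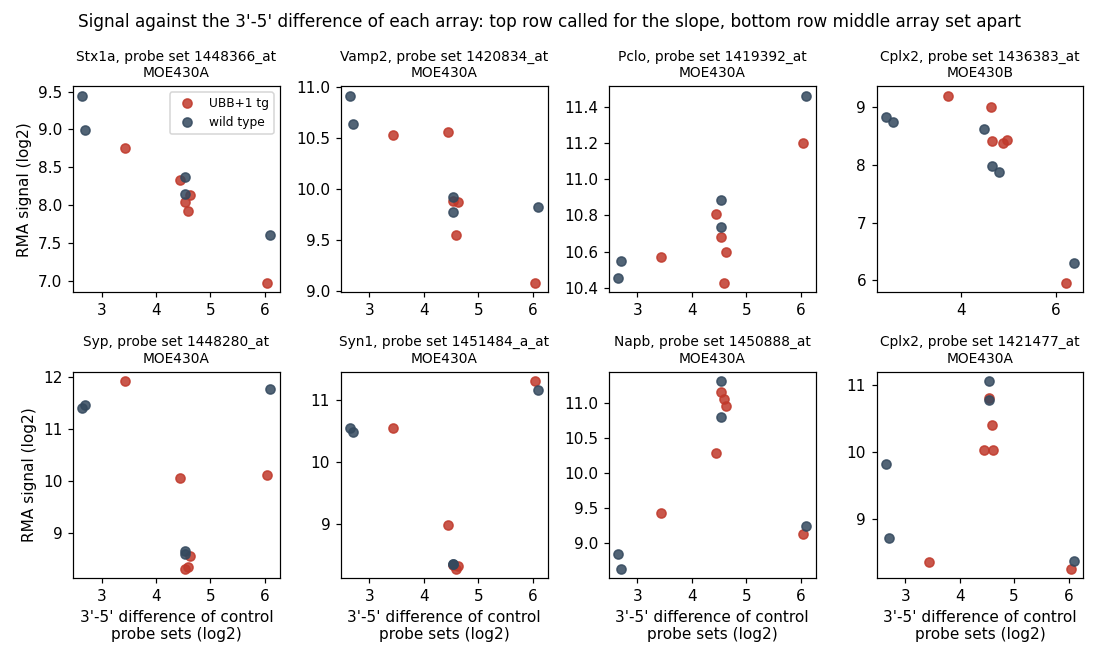
RMA signal (log2, y axis) of 8 member probe sets against the 3'-5' difference of the array's control probe sets (log2, x axis) in each UBB+1 tg (red) and wild-type (dark) mouse. In the top row the signal falls or rises along the axis (Stx1a spans 9.45 to 6.97), and in the bottom row the middle arrays lie apart from both ends in both genotypes.

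With a block for the array set, 8 of 92 member probe sets on MOE430A (against 7.19% of all) and 3 of 46 on MOE430B (against 5.06% of all) had an unadjusted p under 0.05, and none passed the false discovery rate. On MOE430A these were Unc13b, Cadps, Snap25 and 2 of Napb, higher in UBB+1 tg mice, and Bsn, Stx1a and Cplx2, lower. On MOE430B they were Stxbp5 and Lin7a, both higher, and Bsn, lower. Without the block the shares of all probe sets were 3.48% on MOE430A and 3.05% on MOE430B. The sets were found in the same values that were fitted, so p-values under the block can be too small and are descriptions only. Snap25 on MOE430A was at 0.41 under the block, against 0.37 without it. It was higher in UBB+1 tg mice within each of the 3 sets, by 0.58, 0.42 and 0.15 in the low, middle and high set. With the 3'-5' difference in the fit instead, this probe set was at 0.25. The Snap25 probe set of MOE430B went the other way under the block, at -0.22. Bsn 1450467_at was lower within the low and middle sets, at -0.39 and -0.26, and at 0 in the high set. Lin7a 1438450_at was at 0.23, 0.93 and -0.14, and Stxbp5 1435398_at at -0.04, 0.96 and 0.33, so that both differences came mainly from the middle set. Low and high sets hold 1 UBB+1 tg mouse each.

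Neighbouring parts of the pathway, taken from gene lists, gave no called gene either. Of 26 further SNAREs of other membranes, 19 were measured on MOE430A, 10 of them higher in UBB+1 tg mice, with a median of 0.002 and a range from -0.35 for Use1 to 0.43 for Sec22b, both SNAREs of the endoplasmic reticulum, and 5 of 7 were higher on MOE430B, where 46.5% of all genes were. Of 46 further regulators of release, such as Rab proteins, 27 were measured on MOE430A and 12 were higher (median -0.044). They ranged from Rabac1 (-0.83), a receptor for prenylated Rab proteins, to Scamp1 (0.52), a membrane protein of secretory carriers. On MOE430B 7 of 24 of these were higher (median -0.088), up to 0.68 for Rab27b, a GTPase of secretory vesicles. For vesicle endocytosis 14 of 26 were higher on MOE430A (median 0.023), from Ap2s1 (-0.64), the small subunit of the clathrin adaptor AP-2, to Amph (0.46), amphiphysin, and 13 of 16 on MOE430B (median 0.143). Of the exocyst, the tethering complex of constitutive exocytosis, 3 of 5 were higher on MOE430A and 4 of 7 on MOE430B, with medians of 0.074 and 0.012.

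The tissue carried the markers of CA3, but also those of neighbouring fields. Of 5 CA3 pyramidal markers on MOE430A, 4 were nominally higher in UBB+1 tg mice, and their summed signal was 12.54 to 13.21 in UBB+1 tg mice and 12.43 to 12.91 in wild-type mice (log2, exact permutation p = 0.0974). Markers of CA2 were higher in UBB+1 tg mice for 4 of 4 genes on MOE430A, with a median of 0.30, and 0.65 under the array-set block with 4 of 4 higher. Their summed signal was 9.92 to 11.93 in UBB+1 tg mice and 9.71 to 10.95 in wild-type mice (exact permutation p = 0.437), and the only CA2 marker on MOE430B, Amigo2, was at -0.07. Of 3 CA1 markers 1 was higher, and their sum was 8.76 to 9.19 in UBB+1 tg mice and 8.51 to 9.28 in wild-type mice. The summed pan-neuronal markers (10 genes) were at 14.00 to 14.35 in UBB+1 tg mice and 14.08 to 14.15 in wild-type mice. Of them 5 were higher, and Tubb3 had the lowest difference, -1.02 (adjusted p = 0.984, limma). Of 7 dentate granule markers 6 lay below the array's median signal, Prox1 lowest, and the sum was 7.95 to 8.68 in UBB+1 tg mice and 8.36 to 8.95 in wild-type mice (exact permutation p = 0.219). Interneuron markers, 10 genes of which Cck was brightest, summed to 11.72 to 12.79 in UBB+1 tg mice and 11.94 to 12.67 in wild-type mice, and 5 of the 10 were higher in UBB+1 tg mice. Astrocyte, oligodendrocyte, microglia and vessel markers were present, with 3 of 10, 9 of 11, 4 of 10 and 5 of 9 higher in UBB+1 tg mice on MOE430A. The CA1, pan-neuronal, dentate and interneuron values above are of MOE430A too. On MOE430B 2 of 3 CA3, 2 of 2 CA1, 1 of 5 pan-neuronal, 2 of 6 dentate and 1 of 3 interneuron markers were higher. For astrocytes, oligodendrocytes and vessels it was 4 of 5, 1 of 1 and 0 of 1 there. None of the marker genes was called on either array. The part of these cells in the values of the release genes was not tested.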

How the data were processed

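CA3 of UBB+1 tg and wild-type mice was hybridised to 23 Affymetrix arrays of 2 kinds, 1 mouse per array, with groups and mouse numbers taken from the sample labels. The authors processed the arrays by RMA (background correction, quantile normalization and summary per probe set) for each kind of array, and the version is not given in the sources used here. For MOE430A they deposited linear intensity values in whole numbers, for which log2 was taken here. For MOE430B they deposited log2 values, used as they are. All value columns were mapped to a mouse, and 0 were unused. The number of arrays limits the precision.

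The 64 control probe sets of each array and the probe set tied to the transgene's promoter were left out, and 22625 and 22511 probe sets were tested. The main test was limma 3.58.1 in R 4.3.3 (lmFit and eBayes), UBB+1 tg minus wild type, with Benjamini-Hochberg adjustment within each array at a false discovery rate of 10%. The methods name ChipInspector for the first analysis, which was not run here, and limma at this rate for a second, and do not name the adjustment. The paper reports regulated genes at this rate from ChipInspector and states that limma bore the results out. Here limma called 0 of the 22625 and 0 of the 22511 probe sets, and the reason for this disagreement was not tested. Slopes on the 3'-5' difference had genotype as a covariate. Single values were tested with two-sided exact permutation tests over all 462 (MOE430A) or 924 (MOE430B) splits, whose smallest p is 0.00216. The fits were tested on simulated data with independent noise for each probe set and array. The simulation held no array sets, so it cannot tell how the fits behave where arrays fall into such sets. Members and lists were chosen with earlier results of these data known. Named probe sets are, per role and array, the representing probe set with the smallest p, and every member probe set at an unadjusted p under 0.05. Others were named after their values were seen. Arrays were clustered by complete linkage (distance 1 minus Pearson r) into 3 sets. The alternatives tried were another quantile normalization, median centring, an added intensity of 50, omission of dim or of cross-hybridising probe sets, another variance model, the 3'-5' difference or array set in the fit, a rate of 5%, averaged probe sets, only mice on both arrays, and leaving out each mouse.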

Additional observations from a re-analysis of the deposited data

Results flagged for a closer look

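Of 46 groups of mice checked for a single distant value over the named probe sets, 2 had one, where chance flags about 1 group in 20. Unc13b 1443308_at on MOE430B read 5.16 in tg271, against 3.84 to 4.10 in the other UBB+1 tg mice. Its difference was 0.09, and -0.10 without that mouse. Cplx2 1455672_s_at on MOE430B read 11.53 in wt331, against 11.24 to 11.33 in the other wild-type mice. That mouse has no MOE430A array.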

How the results depend on the processing

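No member probe set was called at a false discovery rate of 10% under any of the alternatives, on either array. The median difference of the members lay between 0.016 and 0.17 on MOE430A and between -0.022 and 0.045 on MOE430B when each mouse was left out, less than 1 SD of the mice's own medians from the full value. Of 23 named probe sets, 14 kept their direction under every alternative and 9 turned in at least 1. With a block for the array set, Stxbp3 was at -0.075, Cplx1 at -0.0091 and Syn1 at 0.11 on MOE430A, and Stxbp5 1430301_at at -0.036 on MOE430B. With the 3'-5' difference in the fit, Stxbp5 1430301_at was at -0.037 and Snap25 at 0.0032 on MOE430B, and with only the mice on both arrays Stx3 was at 0.0028. Leaving out each mouse gave -0.024 to 0.30 for Stxbp3 on MOE430A and, on MOE430B, -0.012 to 0.24 for Stxbp5 1430301_at, -0.40 to 0.048 for Snap25, -0.061 to 0.096 for Nsf, -0.10 to 0.16 for Unc13b, -0.021 to 0.17 for Syn3 and -0.073 to 0.0028 for Stx3. The number of member probe sets associated with the 3'-5' difference on MOE430A ranged from 4 (without wt287) to 13 when each mouse was left out, and was 15 without dim probe sets. Over all probe sets it was 1870 with all mice, 878 without wt287 and 1840 without dim probe sets. Of the 92 member probe sets on MOE430A 26 were dim, so the counts without dim probe sets are out of fewer probe sets and are larger shares. The cause of these turns was not tested. No paired analysis was possible because the mice of the 2 genotypes share neither numbers nor litters in the labels.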
